A study of Mus musculus with 20 samples.

Results

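Footpad RNA of mouse pups on postnatal day 1 (P1) was compared with footpad RNA of embryos shortly before birth (E17.5). The comparison used 8 of the 20 arrays of the series, chosen by the stage in the labels: 2 wild-type (WT) and 2 Tabby arrays at each stage, which the labels call biological replicates. The mice were of the strain C57BL6/J, and the Tabby groups carried a mutation of Eda, the gene of the ligand ectodysplasin A. No other treatment was given in the labels, and whether the RNA of an array came from 1 animal or from several was not stated. Each array was hybridised with footpad RNA in Cy3 and with a reference RNA in Cy5, a pool of cell line RNA mixed with embryonic stem cell RNA. The other groups, WT and Tabby at P3, P5 and postnatal day 56, are used only to follow the P1 values onward.

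Birth takes the skin from amniotic fluid into dry air, and the outermost epidermal cells of the footpad thicken into a cornified layer around that time. The cornified envelope is a shell of cross-linked proteins beneath the membrane of these cells, and late cornified envelope (Lce) proteins are among its components. Footpad skin also holds proliferating basal keratinocytes, dermis, vessels, nerves and the buds of the eccrine sweat glands, which grow inward from the epidermis around birth and depend on ectodysplasin A. The arrays were made from bulk RNA, so that fewer cells of a type and less RNA per cell cannot be told apart.

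The 4 E17.5 arrays lay on 1 slide and the 4 P1 arrays on another, and the slides were scanned on different days. Stage and slide cannot be told apart. The reference channel gives a measure of how far the slides differed, since the labels describe the same reference on both. Its change is printed beside many of the results, and where it is not printed the reference may have changed as well. All footpad values are log2 of the Cy3 signal minus the array's median, so that 0 is the level of the median probe of that array and a difference of 1 is 2-fold. Each array had 27285 to 29063 of 42006 probes well above background. Across 28645 probes, the correlation was 0.993 to 0.997 between replicates of a group, 0.992 to 0.998 between any arrays of a stage, and 0.970 to 0.973 between arrays of different stages, where probes are no independent replicates.

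The probes carry only catalogue identifiers with a sequence of 60 bases. They were named by comparing the sequences with the first 50 transcribed bases of each gene (RefSeq, GRCm38.p6), which gave 1 gene symbol for 144 probes. Of these, 59 were tested. None of the 82 marker genes listed for keratinocytes, fibroblasts, endothelium, muscle and other cells of the footpad was among the named probes. The labelled tissue was therefore not checked against its defining markers, and the probes with a gene name are a small part of the array. The other probes are given by identifier and sequence.

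Of 28645 probes tested, 18233 (63.7%) differed between P1 and E17.5 at an adjusted p under 0.05 (limma, Benjamini-Hochberg). At P1, 7262 (25.4%) were higher and 10971 (38.3%) lower. The fitted change was at least 2-fold for 1481 probes that were higher (5.17%) and for 1984 that were lower (6.93%). A fitted change can rest on signals not above background, and among the 26095 probes above background on all 8 arrays 1190 rose and 1360 fell at least 2-fold. Of these, 130 rose and 74 fell at least 4-fold, and 7 rose and 0 fell at least 16-fold. Where a stage was above background on 0 of 4 arrays, the bound reached 16-fold for 2 rises and 1 fall. The 4 P1 arrays lay entirely above or entirely below the 4 E17.5 arrays for 59.5% of the probes tested. Changes are relative to the array median, and the median change over all probes tested was -0.11 in log2. The balance of rises and falls moved with the scaling: 39.8% of the called probes were higher at P1 as given here, 47% with quantile normalization and 50.7% with no background correction. The number called moved most with the background correction. With normexp in place of the scanner software's subtraction, 1651 probes were called, 76.2% of them higher, and the median change over all probes was 0.12. Without Tabby E17.5 replicate 2 the same setting called 15659, 46.1% of them higher.

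In the reference channel, which the labels describe alike for both slides, 23419 of 28645 probes (81.8%) differed at an adjusted p under 0.05 (limma, Benjamini-Hochberg). The SD of the change over all probes was 1.06 in log2 for the reference and 0.71 for the footpad RNA. Between P1 and P3 the SD of the reference change was 0.194, between P3 and P5 it was 0.18, and between P5 and adults it was 0.395. The reference of the E17.5 slide thus stood apart from that of the later slides by more than these did from one step to the next. Across probes, the footpad change and the reference change correlated at r = 0.261, as a description of probes that share slides and spots. The next counts are of the 23923 probes above background in both channels on all 8 arrays. Of 1005 that rose at least 2-fold, 287 (28.6%) also rose at least 2-fold in the reference, against 9.39% of all of them. Of 1132 that fell at least 2-fold, 211 (18.6%) also fell at least 2-fold in the reference, against 11.6% of all. The part of the reference change in the footpad change was not tested.

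**Figure D1:**
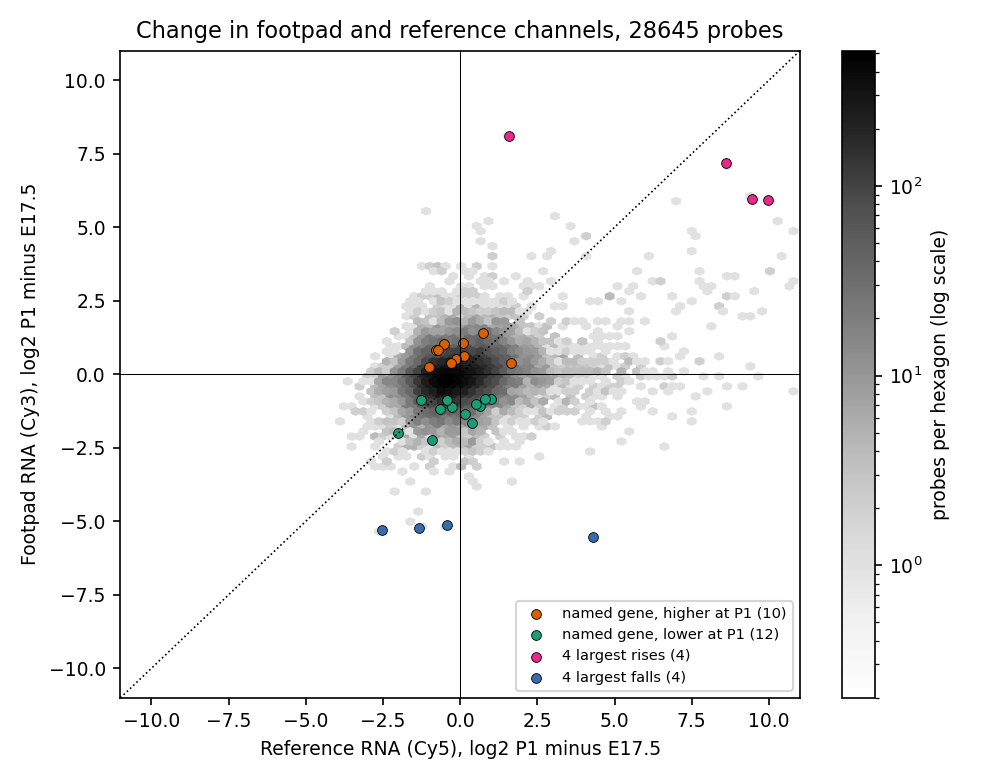
Log2 change from E17.5 to P1 in the footpad channel (vertical axis) against the change of the same probe in the reference channel (horizontal axis) for 28645 probes, shaded by the number of probes per hexagon on a log scale; the dotted line marks equal change. Most probes lie within a cloud around 0 that is wider along the reference axis, and 3 of the 4 largest footpad rises lie to the right of the line. The E17.5 footpad signal of these 3 was above background on 0 of 4 arrays, so that their places are those of fitted values.

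Since the reference moved, the sequences shown first are of probes whose reference changed by less than 1.5-fold, that were above background in both channels on all 8 arrays and that did not overlap between stages. This group was defined after the values were seen. It gives the changes for which the reference channel was most alike on both slides, and no test is drawn from it. The 3 with the largest rise and the 3 with the largest fall are printed 5′ to 3′ as the array design gives them. Capitals mark the hexamer AATAAA, the common polyadenylation signal, where it occurs.
Z00056120-1: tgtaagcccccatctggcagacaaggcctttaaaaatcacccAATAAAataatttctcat
Z00022669-1: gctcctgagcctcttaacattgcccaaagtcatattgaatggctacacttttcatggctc
Z00074071-1: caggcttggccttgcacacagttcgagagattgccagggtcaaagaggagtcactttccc
Z00033207-1: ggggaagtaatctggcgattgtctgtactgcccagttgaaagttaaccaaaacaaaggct
Z00070358-1: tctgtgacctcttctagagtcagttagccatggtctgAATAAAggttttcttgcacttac
Z00075199-1: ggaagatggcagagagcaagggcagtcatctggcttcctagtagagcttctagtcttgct

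Z00056120-1 was the probe of this group that rose most. Its values were -1.40 and -1.17 on the WT and -1.20 and -1.79 on the Tabby arrays at E17.5, and 2.60 and 2.77 on the WT and 2.00 and 1.84 on the Tabby arrays at P1. All P1 arrays lay above all E17.5 arrays, with a change of 3.69 ± 0.16 (SE, limma adjusted p = 2.90e-06), or 12.9-fold, beside 0.57 in the reference. The probe was at 1.46 ± 0.44 (SD, n = 2) in WT at P3 and at 4.42 ± 0.43 in WT adults, so that the WT level of P1, 2.69 ± 0.12, was above that of P3 and below that of adults. Next came Z00022669-1, at 2.76 ± 0.38 (SD, n = 4) at E17.5 and 6.26 ± 0.38 at P1, 11.3-fold higher, with a reference change of 0.50. Z00074071-1 rose from -0.36 ± 0.84 to 2.99 ± 0.39 (SD, n = 4 each), 10.2-fold. The other 3 of the 6 largest rises were Z00034804-1 with 9.17-fold, Z00075362-1 with 8.02-fold and Z00014891-1 with 7.35-fold.

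The rise was held to a different degree after P1. Z00014891-1 was at -0.47 ± 0.30 at E17.5 and 2.41 ± 0.10 at P1 (SD, n = 4 each), and then at -0.52 in WT and -0.94 in Tabby at P3, the level of E17.5. Z00022669-1 had P3 means of 2.13 in WT and 1.72 in Tabby, below its E17.5 mean, and reached 5.64 and 6.96 in adults. Z00075362-1 went from 2.06 at E17.5 to 5.27 at P1 and 3.53 at P3 in WT, and from 2.03 to 4.82 and 4.04 in Tabby, so that its P3 means lay between those of E17.5 and P1. Another probe that shares 29 bases with it, Z00016687-1, rose by 3.07 in log2, close to its own 3.0.

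Z00033207-1 fell most in this group. It was at 4.69 and 4.54 on the WT and 4.34 and 4.61 on the Tabby arrays at E17.5, and at 1.17, 1.48, 1.40 and 1.54 in the same order at P1. The stages did not overlap, and the probe was 8.87-fold lower at P1, a change of -3.15 ± 0.11 (SE, limma adjusted p = 1.27e-06) beside 0.02 in the reference. Z00070358-1 fell from 1.31 ± 0.18 to -1.37 ± 0.75 (SD, n = 4 each), 6.44-fold, and its P1 arrays ranged from -2.0 to -0.42. Z00075199-1 fell from 6.40 ± 0.24 to 3.80 ± 0.59, 6.07-fold, and its values went on falling to -1.04 in WT and -1.0 in Tabby at P3. Both probes that share 26 to 40 bases with it, Z00057869-1 and Z00023905-1, fell alike, by 2.68 and 2.74 in log2 against its own 2.60. The other 3 falls, of 5.15-fold to 5.50-fold, were those of Z00026369-1, Z00031209-1 and Z00000500-1. Their WT means at P3, 4.66, 4.61 and -0.09, lay near those at P1, 4.34, 4.36 and -0.17. In WT adults they were at 5.28, 5.51 and -0.16.

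**Figure D2:**
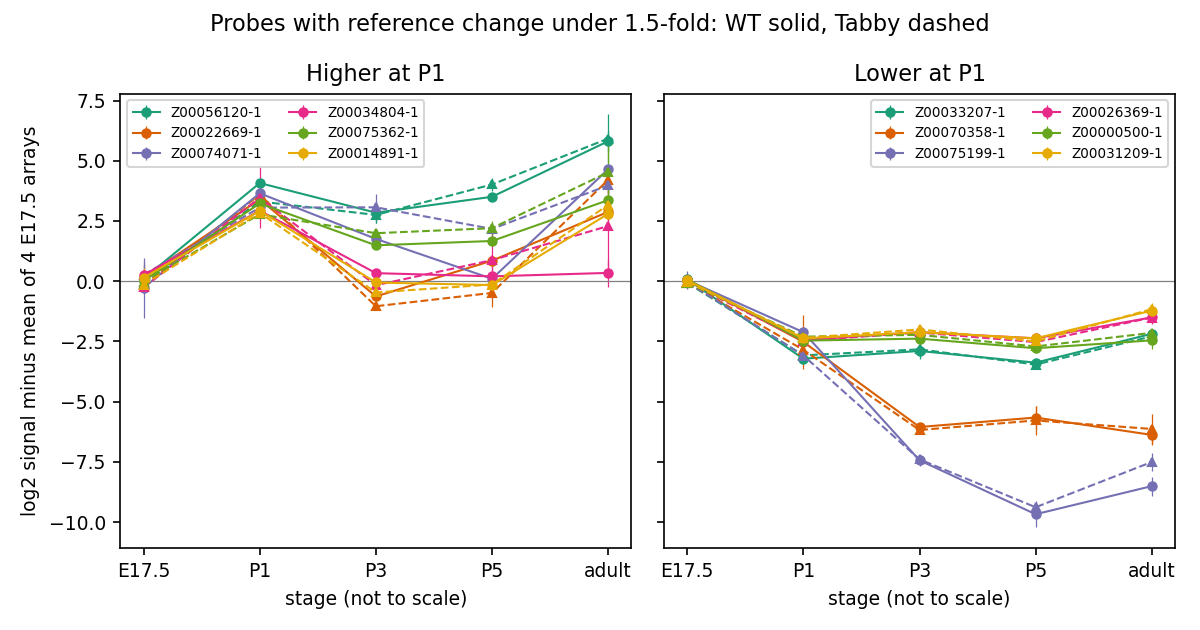
Log2 signal of the 12 probes relative to the mean of the 4 E17.5 arrays (vertical axis) at 5 stages (horizontal axis, not to scale), as the mean of 2 arrays per genotype with the SD as error bar; WT is solid with circles and Tabby dashed with triangles. The 6 probes on the left were 7.35-fold to 12.9-fold higher at P1 and then diverged, and of the 6 on the right, Z00070358-1 and Z00075199-1 lay lower still from P3 on, while the other 4 lay near their P1 level at P3 and P5 and 3 of these 4, all but Z00000500-1, were higher in adults.

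The direction of these 12 probes held in every setting tried that could be run for them, and all were called in each. They had been chosen for large changes beside a steady reference, so that this is no independent support. With the normexp background the 6 rises were 1.88 to 3.59 and the 6 falls -2.27 to -1.21 in log2. Among the 12911 probes with a reference within 1.5-fold and above background on all 8 arrays, 384 were at least 2-fold higher and 606 at least 2-fold lower at P1. This is 7.67% of them, against 12.1% of all probes tested.

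The largest changes whatever the reference did were of another kind. The sequences of 2 rises and 2 falls are shown, of which the 2 rises and the first fall were higher at P1 in the reference and the second fall was not above background there.
Z00023589-1: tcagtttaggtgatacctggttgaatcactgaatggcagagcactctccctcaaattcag
Z00007563-1: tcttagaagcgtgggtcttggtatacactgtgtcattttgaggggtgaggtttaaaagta
Z00026161-1: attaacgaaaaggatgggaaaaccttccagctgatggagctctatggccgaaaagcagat
Z00070209-1: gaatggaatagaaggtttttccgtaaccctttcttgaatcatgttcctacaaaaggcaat

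Z00023589-1 had the largest rise on the arrays. It was at -0.47 and -1.07 on the WT and -0.01 and -0.86 on the Tabby arrays at E17.5, and at 7.14, 7.23, 8.06 and 7.56 in the same order at P1. The change of 8.10 ± 0.22 (SE, limma adjusted p = 7.01e-07) is 275-fold, beside a 2.99-fold rise in the reference, which was above background on 3 of 4 arrays at E17.5. The P3 level was far lower: the probe was at 0.91 ± 1.11 in WT and 1.91 ± 0.15 in Tabby at P3 (SD, n = 2 each), and at 8.79 in WT and 9.62 in Tabby adults. The 3 next largest rises were of probes that were above background on 0 of 4 arrays at E17.5 and on 4 of 4 at P1. Z00007563-1 was at -4.51 ± 0.32 and 2.66 ± 0.17 (SD, n = 4 each), at least 39.8-fold higher (limma adjusted p = 4.65e-07), where the bound sets the P1 mean against each E17.5 array's dimmest probe signal marked well above background. Z00013472-1 was at -3.83 ± 0.72 and 2.12 ± 0.13, at least 27.3-fold higher, and Z00074976-1 at -4.71 ± 0.20 and 1.26 ± 0.14, at least 15.1-fold higher. The reference of these probes was also higher at P1. It was above background on 4 of 4 arrays there, and at E17.5 on 3 of 4 for Z00007563-1 and on 0 of 4 for Z00013472-1 and Z00074976-1, so that the sizes of the changes in both channels cannot be compared. At P3 the WT means of Z00007563-1, Z00013472-1 and Z00074976-1 were 2.81, 2.15 and 1.28, close to their P1 means. In adults they were at 2.93, 2.42 and 1.52 in WT and at 2.94, 2.51 and 1.55 in Tabby. These probes were thus low on the arrays of the E17.5 slide only, and stage and slide cannot be told apart.

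Of the 7 probes above background on all 8 footpad arrays that rose at least 16-fold, 3 were also above background on all 8 arrays in the reference. All 3 rose at least 2-fold there, 2 of them by more than in the footpad channel.

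Z00026161-1 had the largest fall. It was at 1.57 and 1.92 on the WT and 1.07 and 1.73 on the Tabby arrays at E17.5, above background on all 4. At P1 it was above background on 0 of 4 arrays, with -4.91 and -3.81 in WT and -3.36 and -3.71 in Tabby, at least 17.3-fold lower (limma adjusted p = 7.28e-06). The reference of this probe moved the other way, by 4.31 in log2, with 3 of 4 arrays above background at E17.5. In adults the probe was at 5.26 in WT and 5.95 in Tabby. Z00076581-1 was at least 12.4-fold lower, Z00070209-1 at least 8.41-fold and Z00028299-1 at least 8.23-fold, each above background on 4 arrays at E17.5 and 0 at P1. The reference of Z00076581-1 also fell, by -1.35 in log2, and was above background on all 8 arrays. That of Z00028299-1 also fell, with a fitted change of -2.53. It was above background on 3 of 4 arrays at E17.5 and 0 of 4 at P1. The reference of Z00070209-1 was above background on 0 of 4 arrays at either stage and gives no change.

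Over the whole array, 149 probes were above background on 4 of 4 arrays at P1 and 0 of 4 at E17.5, and 350 the other way round. The bound reached 2-fold for 76 and 80 of them.

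The probes that were at least 2-fold higher at P1 had a median level of 0.02 before birth and 1.56 at P1, followed by 1.27 at P3, 1.52 on day P5 and 1.88 in adults. Those that were at least 2-fold lower had medians of 1.11, -0.28, 0.08, -0.07 and -0.61 in the same order. The group medians at P3 and P5 thus lay nearer those of P1 than those of E17.5, while the median of all probes tested was 2.41 to 2.45 at every stage. At P3, 68.9% of the rises and 74% of the falls were beyond the midpoint of the step, and at P5 78% and 82%. The 4 E17.5 arrays share 1 slide, so that a level kept after E17.5 cannot be told apart from a difference of that slide. The first step of each series chose the probes and is no result. The footpad SD of change over all probes was 0.707 from E17.5 to P1, 0.474 from P1 to P3, 0.286 from P3 to P5 and 1.18 from P5 to adults.

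Probes that overlap in sequence gave like values. Among 1028 pairs of tested probes that share at least 20 bases, 595 had both members called, 593 of them in the same direction, and all 96 pairs in which both changed at least 2-fold did so in the same direction. The median difference within a pair was 0.10 in log2. Pairs of probes that share no bases were not compared, so that these counts have no share to be set against. The probes that rose at least 2-fold had a median GC content of 45%, as all probes had, and those that fell 43.3%. The hexamer AATAAA, searched on the strand printed, was in 6.68% of the first, 8.17% of the second and 7.74% of all probes tested.

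Of the 59 tested probes with a gene name, 15 were higher, 20 lower and 24 not called, so that 59.3% were called against 63.7% of all. The fitted change was at least 2-fold for 3 of the 59 that were higher and 9 of the 59 that were lower, beside 5.17% and 6.93% of all probes tested. Of the 3, Zfp825 has a bound under 2-fold. Among the 9, Ccdc33 changed by -1.18 with overlapping stages, beside -1.20 in the reference. The median change of the 59 was -0.17, beside -0.11 for all probes tested. Each of the matches covers 30 to 60 of the 60 bases, since the table gives 50 transcribed bases of a gene. The genes with large families or processed copies, such as histones and ribosomal proteins, can share these bases with copies elsewhere, and their probes may have measured several transcripts.

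Lce1l, a late cornified envelope gene, was the only cornified envelope gene of 56 listed that had a named probe. The probe Z00042029-1 matches 31 bases within the first 50 of its transcript, with 1 mismatch (chr3:92851237-92851267, minus strand, GRCm38.p6). The other bases of the probe were not compared, and it may have measured a related gene. Its values were 1.00 and 0.51 on the WT and 0.72 and 0.98 on the Tabby arrays at E17.5, and 1.64 and 1.64 on the WT and 2.02 and 1.97 on the Tabby arrays at P1. All P1 arrays were above all E17.5 arrays, and the probe rose by 1.01 ± 0.12 in log2 (SE, limma adjusted p = 0.000191), 2.02-fold. The reference moved the other way, by -0.52. In WT the level was 0.91 at P3, 1.43 at P5 and 4.57 in adults, and in Tabby 1.35, 1.76 and 4.99, so that the P1 values were exceeded only in adults.

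Sec61b encodes a subunit of the channel through which new proteins enter the endoplasmic reticulum. The probe Z00030447-1 matches 41 bases within the first 50 of its transcript (chr4:47474670-47474710, plus strand, GRCm38.p6), and its other bases were not compared. It was at 5.41 and 5.31 on the WT and 5.53 and 5.52 on the Tabby arrays at E17.5, and at 3.51, 3.77, 4.01 and 3.80 in the same order at P1. No array of 1 stage reached the other, and the fall was 3.18-fold (-1.67 ± 0.09 in log2, SE, limma adjusted p = 4.98e-06), beside a 1.29-fold rise in the reference. Sec61b was at 4.30 in WT and 4.40 in Tabby at P3, above all P1 arrays, and still below all E17.5 arrays.

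Rps27rt, an intron-less copy of a gene for a small ribosomal subunit protein, was at 9.31, 9.10, 9.12 and 9.23 at E17.5 and at 7.48, 7.97, 8.06 and 7.84 at P1, in the order WT then Tabby. It was 2.56-fold lower (limma adjusted p = 5.18e-05), with the stages apart. Mrps21, a protein of the mitochondrial ribosome, was 2.27-fold lower (limma adjusted p = 1.07e-05). Fau, which encodes a ribosomal protein fused to a ubiquitin-like domain, fell from 6.09 ± 0.12 to 5.21 ± 0.20 (SD, n = 4 each), 1.83-fold. Of the 101 ribosomal protein genes listed, 3 were tested: Rps27rt and Rps27l were lower, the latter by 0.40 in log2, and Rpl10a was not called, with a change of 0.40 ± 0.19 (SE, limma adjusted p = 0.0938). Without WT P1 replicate 1 the change of Rpl10a was 0.60 (adjusted p = 0.00157). The reference of these genes changed by 0.14 for Rps27rt, -0.67 for Mrps21, -0.41 for Fau, 0.86 for Rps27l and 1.28 for Rpl10a.

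Snrpg and Snrpf encode Sm proteins, members of the ring that the small nuclear RNAs of the spliceosome carry. Both were lower at P1, as were 38.3% of all probes tested. Snrpg was at 4.82 ± 0.10 at E17.5 and 3.71 ± 0.13 at P1 (SD, n = 4 each), 2.16-fold lower, and Snrpf at 2.16 ± 0.14 and 1.08 ± 0.14, 2.12-fold lower (limma adjusted p = 2.28e-05 and 3.49e-05). For both, the 4 P1 arrays were below the 4 E17.5 arrays. The reference changed by -0.26 for Snrpg and 0.64 for Snrpf. Both had recovered in part in adults, with 4.36 and 1.74 in WT, still below their E17.5 means.

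The 5 tested histone genes with a named probe were gathered after their values were seen, and 4 were higher and 1 was lower. Only 144 of 42006 probes had a name, and histone probes among the others are not counted. The tally therefore does not give the direction of histone genes as a family. H4c3, an H4 histone gene of the replication-dependent kind (chr13:23698409-23698446, minus strand, GRCm38.p6), was above background on all 4 E17.5 arrays, with -1.17, -1.80, -1.72 and -1.37 in the order WT then Tabby. It was above background on 0 of 4 P1 arrays, with -2.99, -3.74, -4.39 and -3.87. Its mean was -1.51 ± 0.30 at E17.5 and -3.75 ± 0.58 at P1 (SD, n = 4 each), at least 2.03-fold lower (limma adjusted p = 0.000112), while the reference fell by 0.93 in log2. H2ac18, an H2A gene, was instead 2.62-fold higher at P1. Its values went from -0.86, -1.46, -1.21 and -0.98 to -0.09, 0.38, 0.64 and 0.11 (limma adjusted p = 0.000265), beside 0.73 in the reference. In WT it was at 0.11 at P3 and 1.82 in adults. H3f3a, which encodes the histone variant H3.3 that is deposited outside replication, was 1.29-fold higher, with a reference that rose 3.16-fold. Relative to the reference it was lower at P1, by 0.61 in log2 after normexp and loess, and its call was lost without WT E17.5 replicate 1 (adjusted p = 0.0524). H2bc11 was 1.18-fold higher, with a reference that fell 2.02-fold. The call of H2bc11 was lost on leaving out any single array but Tabby E17.5 replicate 1. H2bc6 changed by 0.27 ± 0.10 (SE, limma adjusted p = 0.0363), with overlapping stages, and its reference fell 1.98-fold. H2bc6 lost its call in 6 of the 8 fits that left out 1 array. The call was kept without WT E17.5 replicate 2 and without WT P1 replicate 1.

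Cyba, a subunit of the superoxide-producing NADPH oxidase, was at 2.66, 2.61, 2.67 and 2.74 at E17.5 and at 1.90, 1.76, 1.99 and 1.72 at P1, 1.77-fold lower (limma adjusted p = 6.42e-05), while its reference rose 1.76-fold. Mif, the cytokine macrophage migration inhibitory factor, fell from 3.84 ± 0.10 to 2.99 ± 0.15 (SD, n = 4 each), 1.80-fold, while its reference rose 1.98-fold. Gstp1, a glutathione transferase, changed by -0.74 ± 0.10 (SE, limma adjusted p = 0.000312), and Prdx1, a peroxide-reducing enzyme, by -0.45 ± 0.12 (adjusted p = 0.0110). With the normexp background Gstp1 changed by -0.27 (adjusted p = 0.580), Prdx1 by 0.04 and Rps27l by 0.11, and none was called. Taldo1, an enzyme of the pentose phosphate pathway, was not called, with -0.05 ± 0.07 (adjusted p = 0.551). Sord, sorbitol dehydrogenase, was 1.54-fold higher, from -0.88 ± 0.12 to -0.26 ± 0.19 (SD, n = 4 each, limma adjusted p = 0.00151), with a reference change of 1.08-fold. After normexp and loess its ratio to the reference changed by -0.06.

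Among the remaining named genes that rose, Crxos was 1.77-fold higher, at 2.56 ± 0.08 and 3.38 ± 0.17 (SD, n = 4 each). Pitpnm2, a phosphatidylinositol transfer protein, was 1.44-fold higher, and D8Ertd738e 1.31-fold. The call of Pitpnm2 was lost without WT E17.5 replicate 1 or 2, Tabby E17.5 replicate 1, WT P1 replicate 1 or Tabby P1 replicate 2. The zinc finger gene Zfp825 was above background on 4 of 4 arrays at P1 and 0 of 4 at E17.5, at least 1.63-fold higher, with means of -3.02 and -1.94. Nat14, above background on 1 of 4 arrays at E17.5 and 4 of 4 at P1, had means of -2.77 and -1.96 and was called higher (limma adjusted p = 0.0114). With no background correction, Zfp825 and Nat14 changed by -0.041 and -0.066, and neither was called. Among those that fell, Ntng1, a netrin G protein that guides axons, was 2.01-fold lower, with 5.03 ± 0.08 and 4.03 ± 0.16 (SD, n = 4 each). The long noncoding RNA Gm36608 was lower at P1 (limma adjusted p = 6.10e-05), with means of -0.54 and -2.52, and was above background on 4 of 4 arrays at E17.5 and 2 of 4 at P1. Its reference was above background on 4 of 4 arrays at E17.5 and 0 of 4 at P1. Gm32950, another long noncoding RNA, was above background on 4 of 4 arrays at E17.5 and 0 of 4 at P1, at least 1.37-fold lower, with means of -2.08 and -2.97.

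In the lists for other tissues and processes, 2 more genes had a tested probe. Kif22, a kinesin of dividing cells and the only tested gene of 75 listed for the cell cycle, changed by -0.38 ± 0.16 (SE, limma adjusted p = 0.0654). Acta2, smooth muscle actin, which marks the myoepithelial cells of sweat glands as well as vessel walls, changed by -0.34 ± 0.18 (adjusted p = 0.130). Neither was called. Without Tabby E17.5 replicate 1 Kif22 changed by -0.49 (adjusted p = 0.0343), and without WT P1 replicate 1 Acta2 changed by -0.52 (adjusted p = 0.00639).

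**Figure D3:**
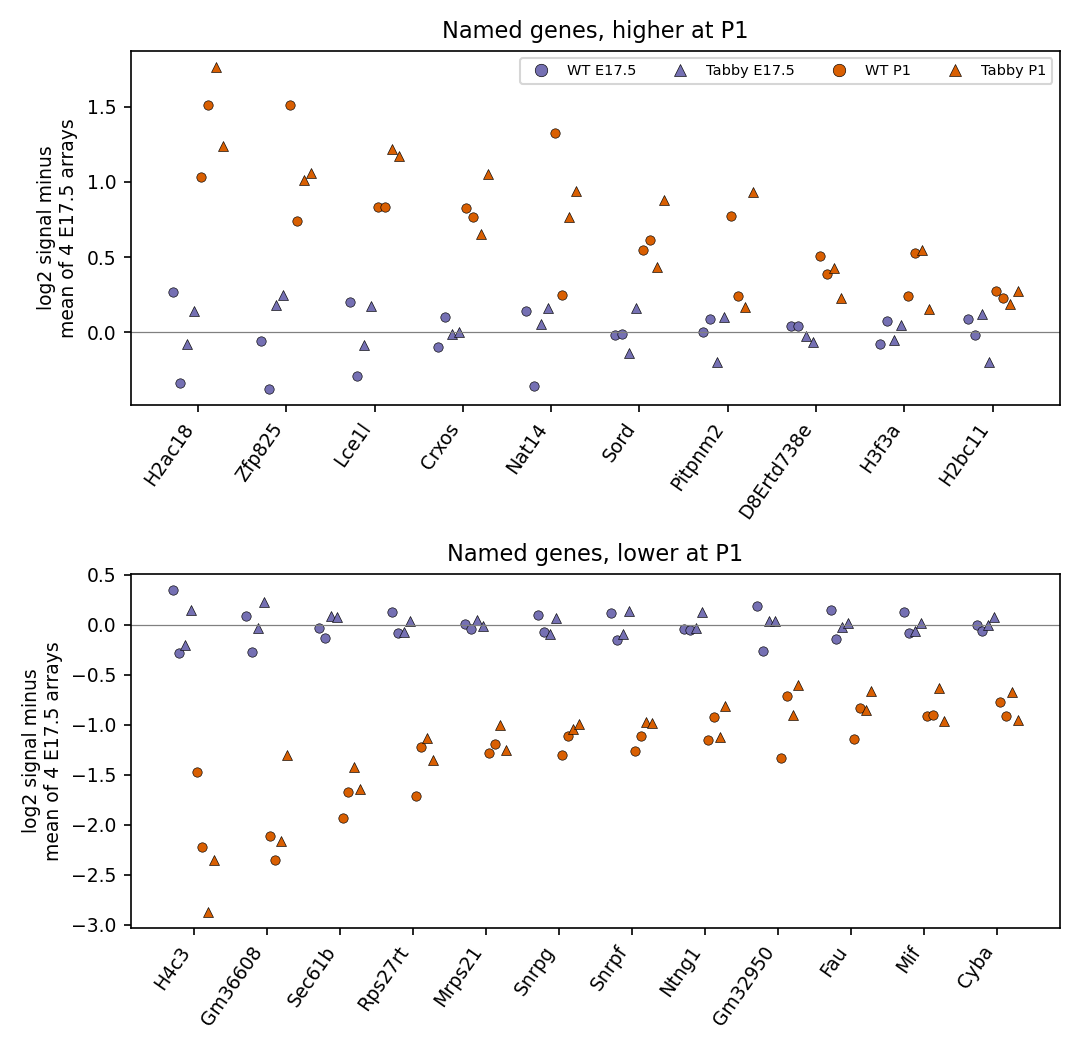
Log2 signal of each of the 8 arrays relative to the mean of the 4 E17.5 arrays (vertical axis) for the 10 named genes that were higher and the 12 that were lower at P1 (horizontal axis); circles are WT and triangles Tabby. In each of these genes the P1 arrays lie on 1 side of the E17.5 arrays, as the rule for naming them required, and the lowest P1 points are those of H4c3 and Gm36608, which were above background on 0 of 4 and 2 of 4 P1 arrays.

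The naming rule asked for stages that did not overlap, so that separation of these genes is no result in itself. With the normexp background, all 12 genes that fell still had a negative change, from -1.06 to -0.22, and 1 of the 12, Gm36608, was called. Without Tabby E17.5 replicate 2 in that setting, 11 of the 12 were called. Of the 10 that rose, 8 kept their direction with normexp and 1, Lce1l, was called, and 10 kept it and 6 were called without that array.

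The change from E17.5 to P1 was also estimated in each genotype alone, to ask whether Tabby footpads went through the same change. In WT, 13651 probes (47.7%) were called and in Tabby 13525 (47.2%). The counts fell when an E17.5 array of the same genotype was left out, to 8054 and 8509 in WT without replicate 1 and 2, and to 8543 and 8107 in Tabby. Both genotypes called 11333 probes, 83% of the WT list and 83.8% of the Tabby list, and 11318 of these changed in the same direction. The arrays of the genotypes are distinct but lie on the same slides, so that a difference between the slides enters both. The probes that rose at least 2-fold over both genotypes had a median change of 1.34 in WT and 1.40 in Tabby, and those that fell -1.31 and -1.28. They had been chosen by the change over both genotypes on these same arrays, so that their like medians are no independent support. Over all probes tested, with none chosen by its change, 88.6% had the same sign in both genotypes. Across all probes tested the WT and Tabby changes correlated at r = 0.911.

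**Figure D4:**
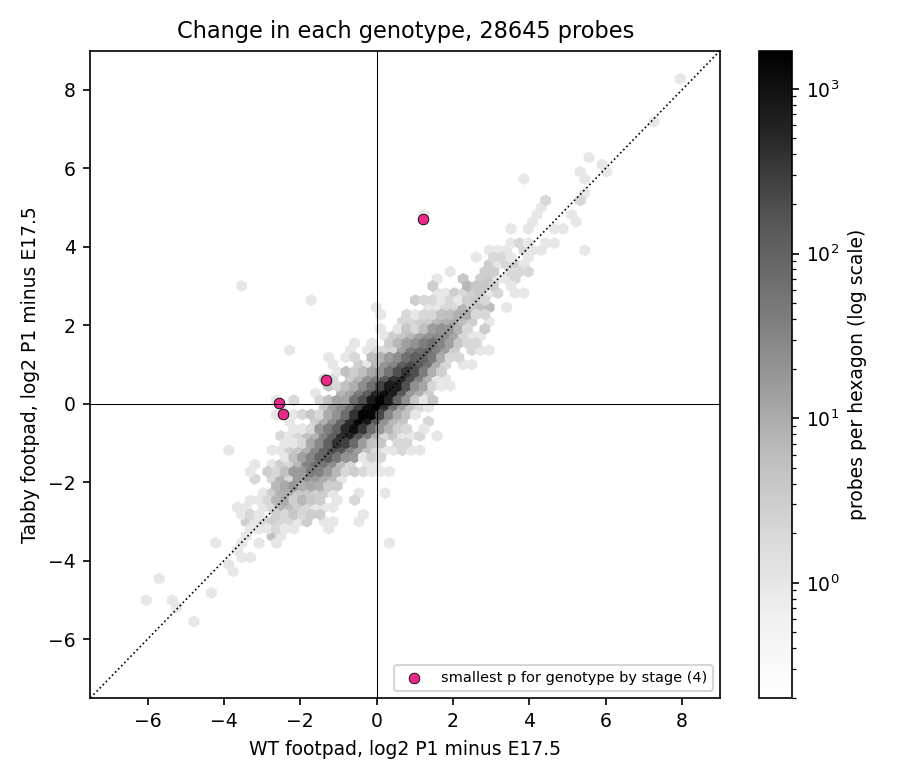
Log2 change from E17.5 to P1 in Tabby (vertical axis) against that in WT (horizontal axis) for 28645 probes, shaded by the number of probes per hexagon on a log scale; the dotted line marks equal change. The probes lie along the line, and the 4 with the smallest p for genotype by stage lie above it.

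The difference between the genotypes was tested directly as genotype by stage. At an adjusted p under 0.05 (limma, Benjamini-Hochberg) 1 of 28645 probes (0.00349%) was called, and 1030 (3.6%) had an unadjusted p under 0.05. On leaving out 1 array the count was 0 without replicate 2 of Tabby at either stage, 2 without Tabby E17.5 replicate 1, 7 without WT E17.5 replicate 2, and 9 without WT P1 replicate 2 or without Tabby P1 replicate 1. The 4 probes with the smallest p are shown with their sequences.
Z00074831-1: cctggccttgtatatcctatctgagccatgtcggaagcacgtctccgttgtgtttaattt
Z00060471-1: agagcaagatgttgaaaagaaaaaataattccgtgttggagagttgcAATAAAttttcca
Z00057124-1: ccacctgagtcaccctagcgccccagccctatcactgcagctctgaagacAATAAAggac
Z00057947-1: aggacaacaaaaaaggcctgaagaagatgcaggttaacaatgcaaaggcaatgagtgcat

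Z00074831-1, the probe called, was above background on both WT arrays at E17.5, at -1.01 and -1.28, and on neither Tabby array, at -4.88 and -4.92. At P1 it was at -0.03 and 0.17 in WT and at 0.03 and -0.39 in Tabby, where the genotypes overlapped. Its change was 1.22 in WT and 4.72 in Tabby, a difference of 3.50 ± 0.24 (SE, limma adjusted p = 0.0375). As the Tabby E17.5 values were not above background, this size is a fitted value. The reference of this probe was above background on 0 of 4 arrays at E17.5 and on 4 of 4 at P1. The call was lost in 5 of the 8 fits that left out 1 array: each of the Tabby E17.5 arrays, WT E17.5 replicate 1, WT P1 replicate 1 and Tabby P1 replicate 2. With the normexp background its overall change was 0.46 in place of 2.97.

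The other 3 were not called, with adjusted p of 0.0972, 0.110 and 0.167 (limma). In all 3 the WT arrays were lower at P1, by more than any change of the Tabby arrays. Z00060471-1 was at 5.28 and 5.39 in WT and 5.07 and 5.04 in Tabby at E17.5, and at 2.82 and 2.72 in WT and 4.83 and 5.30 in Tabby at P1. Z00057947-1 was at 3.08 and 2.77 in WT and 2.80 and 2.88 in Tabby at E17.5, and at 0.37 and 0.58 in WT and 2.40 and 2.73 in Tabby at P1. Z00057124-1 was at 6.65 and 6.73 in WT and 6.41 and 6.69 in Tabby at E17.5, and at 5.43 and 5.28 in WT and 7.10 and 7.21 in Tabby at P1. At P1, all 3 thus separated the genotypes by 1.80 to 2.29 in log2, while at E17.5 their genotype means differed by 0.09 to 0.28.

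**Figure D5:**
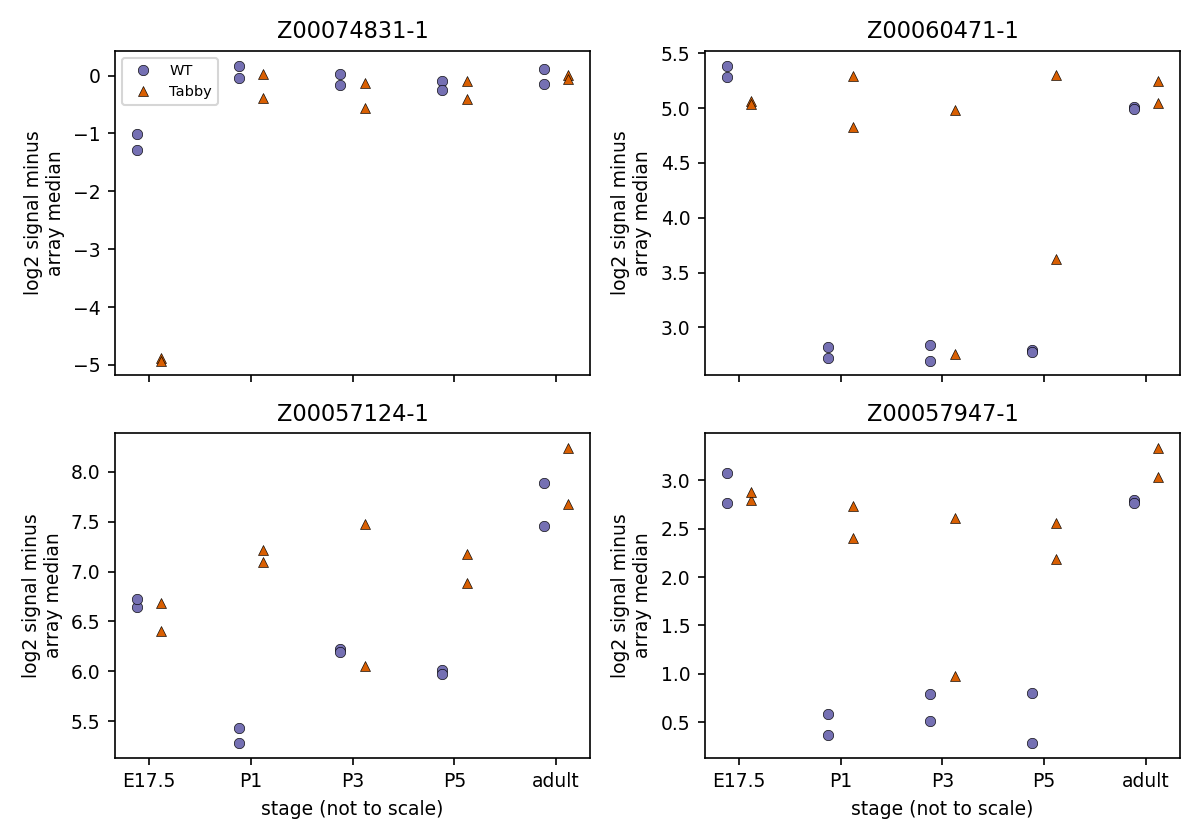
Log2 signal relative to the array median (vertical axis) of the 4 probes on each of the 20 arrays, by stage (horizontal axis, not to scale); circles are WT and triangles Tabby. Z00074831-1 is low only on the Tabby E17.5 arrays, and the other 3 are low on the WT arrays of P1, P3 and P5 and on 1 Tabby array of P3.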

How the data were processed

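RNA of footpad skin (Cy3) and a reference RNA (Cy5) were measured on 2-colour Agilent arrays of 1 design. Per the file headers, the scans were processed in Agilent Feature Extraction 9.5.1.1. The deposited array files give each channel's mean and background signal and a processed signal, an intensity after background subtraction, detrending and a dye normalization that couples both channels. The deposited matrix of values is on a log10 scale for 25030 probes, with scale, centring and direction unstated. Apart from an offset for each probe, they tracked the log ratio of footpad to reference, within 0.001 for 64.4% of probes. Its column medians were 2.58 to 2.59 at E17.5 and 2.57 at P1.

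The processed Cy3 signal was taken as log2, minus the array's median over probe spots, with outlier spots missing and spots of 1 probe averaged. Of 42006 probes, 28647 stood well above background on 4 or more of the 8 arrays. Without 2 that lacked values in a whole group, 28645 were tested, 35 of them with an array missing. They were fitted in limma 3.58.1 (R 4.3.3, data.table version 1.17.8) with stage and genotype as terms, and genotype by stage with 4 group coefficients. The p-values are two-sided and Benjamini-Hochberg adjusted over the probes tested, with a threshold of 0.05. The number of arrays limits the precision, and p-values measure the spread between arrays of a slide. In data simulated for P1 minus E17.5 on 28610 probes, 32% of 50 changes of 0.5, 86% of 50 changes of 1 and 96% of 50 changes of 2 in log2 were called. In those for genotype by stage, 0%, 34% and 86% were. The simulation left 28210 probes unchanged and held no difference between slides. In the data 63.7% of the probes were called, so that these shares do not carry over to them.

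Probe sequences were matched to RefSeq's first 50 transcribed bases over at least 30 bases with at most 2 mismatches: 144 probes had 1 symbol, 20 several and 41842 none. Of 38 gene lists, 5 had a matched probe: cornified envelope, cell cycle, adipocyte and lipid storage (its 1 probe was not tested), sweat gland ducts and secretory cells, and ribosomal proteins. Named by rank were up to 12 probes per direction with a symbol and 4 of any kind, all called, with stages apart, above background and not saturated on the 4 arrays of the higher stage, and the 4 with the smallest p for genotype by stage. The members, lists and tests were chosen with earlier results of these data known. Bounds ("at least") were used where a stage had 0 arrays above background, and dye bias in them was not tested, since no dyes were swapped.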

Additional observations from a re-analysis of the deposited data

Results flagged for a closer look

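Z00074831-1 was set apart because its change from E17.5 to P1 differed between the genotypes by the test of that difference: Tabby minus WT was 3.50 in log2. It was above background on the 2 WT arrays and on 0 of the 2 Tabby arrays at E17.5, and its reference was above background on 0 of 4 arrays at E17.5 and 4 of 4 at P1. The part of the reference change in this difference was not tested.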

How the results depend on the processing

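Of the results on single probes, those of the 12 probes with a steady reference kept their direction and call in every setting run for them. So did those of Z00023589-1, Lce1l, Z00026161-1, Z00028299-1, Z00076581-1 and Z00070209-1. The 12 had been chosen for large changes beside a steady reference, so that their keeping the call is no independent support. The count called at P1 against E17.5 (18233) was 16204 to 18390 on leaving out 1 array, and the counts of at least 2-fold rises (1481) and falls (1984) were 1439 to 1520 and 1923 to 2057. With normexp it was 1651, with 722 rises and 70 falls of at least 2-fold; without Tabby E17.5 replicate 2 in that setting, chosen after seeing the data, there were 676 and 387. With no background correction, also chosen afterwards, there were 978 and 312, and with the reference within 1.5-fold, on fewer probes and likewise chosen afterwards, 8443 called, 384 and 606. As a log2 ratio of processed signals there were 4086 and 3613, with the values of the deposited matrix 2268 rises, and with no filter on dim probes 3195 falls. The share of called probes that were higher, 39.8% in the report, was 76.2% with normexp (46.1% without Tabby E17.5 replicate 2), 55.1% as a ratio of processed signals, 55.6% as a ratio after normexp and loess, 53.7% in the deposited value table and 50.7% with no background correction. The cause was not tested. The count within WT was 8054 to 14241 and within Tabby 8107 to 15238 on leaving out 1 array, and the reference count 22527 to 23879. Genotype by stage gave 0 to 9 probes on leaving out 1 array, 0 as a ratio of processed signals, 0 with no filter and 4 with all 20 arrays in the fit.

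Same-numbered replicates of different groups deviated together only weakly (correlations of -0.111 to 0.0907), so that the numbers were not taken as pairs. With the replicate number as a block, 17936 probes were called at P1 against E17.5, 12978 within WT, 12840 within Tabby and 0 for genotype by stage.

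These values turned their sign. With normexp, Zfp825 changed by -0.042, Nat14 by -0.070, 2310079G19Rik by -0.24, Prdx1 by 0.040 and Rps27l by 0.11. As a ratio of processed signals, H3f3a changed by -1.26, Gm36608 by 0.046, Gm32950 by 0.40, Ttll3 by -0.89, Snu13 by -0.32, Ccdc33 by 0.047, Slc25a5 by 0.046, Z00007563-1 by -1.39, Z00074976-1 by -3.44, Z00013472-1 by -4.0 and Z00074831-1 by -7.55. After normexp and loess, the ratio of Sord changed by -0.057, H3f3a by -0.61, Gm32950 by 0.15, Ttll3 by -0.84, Snu13 by -0.46, Zfp976 by -0.16, Z00007563-1 by -2.86, Z00074976-1 by -3.15, Z00013472-1 by -2.72 and Z00074831-1 by -5.57. In the deposited value table, H3f3a changed by -1.29, Z00007563-1 by -2.17 and Ttll3 by -0.92. With no background correction, Zfp825 changed by -0.041, Nat14 by -0.066 and 2310079G19Rik by -0.030, and 2310079G19Rik by -0.086 with normexp and without Tabby E17.5 replicate 2. Ratios of Z00074976-1, Z00013472-1 and Z00074831-1 rest on an E17.5 reference not above background, and that of Gm36608 on such a P1 reference, so that their sizes are fitted values.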

Other observations

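Over the 20 arrays, Z00060471-1, Z00057124-1 and Z00057947-1, chosen after their values were seen, were high or low on the same arrays. At P3 the 2 Tabby arrays differed in all 3: Z00060471-1 was at 2.75 and 4.98, Z00057124-1 at 6.06 and 7.48, and Z00057947-1 at 0.97 and 2.61, replicate 1 being the lower in each. The lower values lay near those of the WT P3 arrays, which were 2.84 and 2.70, 6.23 and 6.20, and 0.51 and 0.79 in the same order. At P5, the Tabby values of Z00060471-1 were 3.63 and 5.30, beside 2.80 and 2.78 in WT. In adults the genotypes were close again, with means of 5.00 in WT and 5.15 in Tabby for Z00060471-1 and of 2.78 and 3.18 for Z00057947-1. Another probe that shares 28 bases with Z00060471-1, Z00031963-1, changed by -0.84 from E17.5 to P1, beside its own -1.28.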
